A study of Mus musculus with 6 samples.

Results

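Intercalated cells are the cells of the renal collecting duct that move acid and base. They pump protons with a vacuolar-type H+-ATPase (V-ATPase) and exchange bicarbonate for chloride. Type A cells secrete acid through a pump at the luminal side and carry the exchanger Slc4a1 (AE1) at the basolateral side, whereas type B cells secrete bicarbonate through the luminal exchanger Slc26a4 (pendrin). The 10 genes described here were taken as a list of symbols, and all 10 were among the 28208 genes listed in the matrices of all 6 kidneys. They comprise 5 V-ATPase subunit isoforms (Atp6v1g3, Atp6v0d2, Atp6v1b1, Atp6v1c2, and Atp6v0a4), the bicarbonate exchangers Slc4a1, Slc26a4, and Slc4a9, the intracellular channel Aqp6, and the forkhead transcription factor Foxi1, which intercalated cells need to form.

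Droplet sequencing of single cells gave 1 library for each of 6 mouse kidneys, with 2 in each of the naive, rejecting, and tolerized groups. Naive kidneys came from untransplanted B6 mice labelled 10–12 weeks old. Rejecting and tolerized kidneys were BALB/c allografts, labelled 6–7 weeks old, in B6 recipients that had lost both of their own kidneys, and they were taken on day 15. Tolerized recipients had also been infused with ECDI-treated BALB/c splenocytes before and after transplantation, and rejecting recipients had not. All samples are labelled male. Strain, age, transplantation, gene list, and Cell Ranger processing all separate naive from transplanted kidneys, so their parts in any difference from naive kidneys cannot be told apart. Tolerized and rejecting kidneys share strain, age, and processing. With 2 kidneys per group and no statement on separate experiments in the labels, p values measure the spread between these kidneys alone.

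Kidney cells were taken as cells without a unique molecular identifier (UMI) of Ptprc, the leukocyte antigen CD45, with called doublets removed. These numbered 6525 and 5438 (naive), 4542 and 2390 (rejecting), and 4875 and 4270 (tolerized). Many were leukocyte-like, since clusters rich in other leukocyte markers held 69.5% and 27.6% of these cells in the rejecting kidneys, 6.97% and 4.92% (tolerized), and 0.874% and 2.81% (naive). Rejecting kidney 1 stands apart in this respect. Of its 3157 leukocyte-like cells, 1753 and 510 were in 2 clusters made almost wholly of this kidney, in which 4 of 10 leukocyte markers were detected and histone genes were among the leading genes. Median depth was 2151 to 3609 UMIs per cell in naive and rejecting kidneys and 6283 and 8576 (tolerized), so unthinned shares of cells with a UMI compare cells of unequal depth. The 2 naive kidneys shared 111 cell barcodes, and pairs of transplanted kidneys shared 18 to 35. A naive and a transplanted kidney shared 0 to 4. Shared barcodes thus also separate naive from transplanted libraries, and the part of this in differences from naive kidneys cannot be told apart.

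In the GRCm38 (mm10) annotation, Atp6v1g3 (ENSMUSG00000026394) lies on chromosome 1 at 138273738–138289462, Atp6v0d2 (ENSMUSG00000028238) on chromosome 4 at 19876841–19922605, and Atp6v1b1 (ENSMUSG00000006269) on chromosome 6 at 83742990–83758855. Atp6v0a4 (ENSMUSG00000038600) is on the same chromosome at 38048483–38124586. Atp6v1c2 (ENSMUSG00000020566) and Slc26a4 (ENSMUSG00000020651) are on chromosome 12 at 17284721–17329359 and 31519827–31559969. Slc4a1 (ENSMUSG00000006574) and Foxi1 (ENSMUSG00000047861) are on chromosome 11 at 102348824–102366203 and 34204338–34208089, and Aqp6 (ENSMUSG00000043144) is on chromosome 15 at 99601400–99605477. All are protein-coding genes, and UMIs were counted per gene. The members therefore do not form a single gene cluster.

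Because Foxi1 is a forkhead factor, the 250 bases before the RefSeq transcription start (GRCm38.p6) were searched on both strands for 4 forkhead core motifs. These were the motif TGTTTAC and, as variants of it, the motif TGTTTGC, the motif TGTTTAT, and the motif TGTTTGT. A promoter sequence was given for 7 of the 10 genes. A motif was found in 2 of these 7, and in 15.7% of all 32851 promoters searched. The first 200 of the 250 bases are printed for these 2 genes, 5′ to 3′ on the strand of the gene, with the motif in capitals. The match in Atp6v1b1 (TGTTTAC, held by 3.17% of all promoters) starts 98 bases before the transcription start, and that in Atp6v1g3 (TGTTTGT read on the opposite strand, held by 5.84%) starts 67 bases before it. A match describes letters and does not show binding.
Atp6v1b1, chr6:83742767-83742966, plus strand: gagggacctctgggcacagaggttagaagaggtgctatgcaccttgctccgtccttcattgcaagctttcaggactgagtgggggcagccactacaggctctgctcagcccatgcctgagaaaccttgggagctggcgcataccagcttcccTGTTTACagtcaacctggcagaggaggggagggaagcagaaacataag
Atp6v1g3, chr1:138273488-138273687, plus strand: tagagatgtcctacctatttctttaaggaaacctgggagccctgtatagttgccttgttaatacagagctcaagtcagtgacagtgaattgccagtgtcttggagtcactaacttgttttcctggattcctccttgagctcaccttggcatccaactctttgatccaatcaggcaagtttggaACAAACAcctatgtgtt

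First, the cells that contain these transcripts were located. Ptprc-negative cells were clustered without the 10 genes and without the other V-ATPase genes, and clusters were named from other markers. A single cluster of 258 cells was intercalated-like. It had 10 of 11 naming markers, among them Hepacam2, Rhcg, Insrr, Hmx2, and Kit. The cluster held 86 and 31 cells (naive), 30 and 27 (rejecting), and 29 and 55 (tolerized). Of the 10 genes left out of the clustering, Atp6v1g3, Slc26a4, Atp6v0d2, Atp6v1c2, Foxi1, and Aqp6 were among the 10 genes that led it by fold.

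The V-ATPase isoforms differed in how far they were restricted to these cells. Atp6v1g3, a kidney isoform of the G subunit in the peripheral stalk, had a UMI in 94.2% of intercalated-like cells, with a range over kidneys of 85.5% to 100%. Intercalated-like cells held 87.5% of all its UMIs in Ptprc-negative cells. Its share of cells was 16.4% in principal cell-like cells, their neighbors in the collecting duct, and 2.60% to 7.59% in the other named classes. In leukocyte-like cells, which should lack it, the share was 2.60% at a median of 1699 UMIs per cell, against 8639 UMIs in intercalated-like cells. Shares at that level are read as background, not as expression.

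Atp6v0d2, an isoform of the d subunit that joins the membrane sector to the stalk, was detected in 88.4% of intercalated-like cells and 11.4% of loop of Henle-like cells. Intercalated-like cells held 76.6% of its UMIs. Atp6v1c2, an isoform of the C subunit that holds the sectors together, followed the same order, with 88.4% and 9.64% of cells and 72.4% of UMIs. In principal cell-like cells these genes were found in 4.19% and 5.67% of cells, and in leukocyte-like cells in 0.590% and 0.437%.

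Atp6v1b1 and Atp6v0a4 were much wider. Atp6v1b1, the kidney isoform of the B subunit in the ATP-hydrolyzing ring, was detected in 91.1% of intercalated-like cells, 58.0% of principal cell-like cells, 28.1% of distal convoluted tubule-like cells, and 33.99% of loop of Henle-like cells. The share was 0.765% in proximal tubule-like cells and 0.896% in leukocyte-like cells. Intercalated-like cells held 24.8% of its UMIs. Atp6v0a4, the kidney isoform of the membrane-bound a subunit, was detected in 42.2% to 53.5% of cells in each of the other 4 tubular classes and in 13.9% of leukocyte-like cells. This last share was 18.9% in rejecting kidney 1 and 0.91% to 8.77% in the other kidneys, and the 2 clusters made almost wholly of rejecting kidney 1 had 29.8% and 12.8%. Proximal tubule-like cells, the largest class with 12416 cells, held 60.3% of the Atp6v0a4 UMIs with all kidneys pooled (41.2% to 77.7% in single kidneys), and intercalated-like cells held 8.25%.

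The exchangers, Aqp6, and Foxi1 were found mainly in intercalated-like cells. Foxi1 had a UMI in 81.0% of intercalated-like cells, Slc26a4 in 70.9%, Slc4a9 in 63.6%, Aqp6 in 29.1%, and Slc4a1 in 23.3%. Principal cell-like cells had a UMI of these 5 genes in 2.38% to 4.11% of cells. This was the next highest share except for Slc26a4, which was counted in 2.94% of the 136 stroma-like cells and 2.71% of principal cell-like cells. In leukocyte-like cells the 5 shares were 0.109% to 0.656%. Intercalated-like cells held between 74.5% (Aqp6) and 85.9% (Foxi1) of the UMIs of these genes. Principal cell-like cells held 16.9% of the Slc4a1 UMIs and 16.5% of the Aqp6 UMIs, and up to 31.4% and 36.8% in single kidneys. They held 4.57% (Slc26a4), 8.29% (Slc4a9), and 8.72% (Foxi1) of the others. Levels within intercalated-like cells therefore leave out more of the Slc4a1 and Aqp6 UMIs than of the Slc26a4 UMIs. Slc4a1 is also the anion exchanger of red blood cells, but erythroid-like cells gave 1.27% of cells with a UMI and 0.23% of its UMIs. The class heat map shows this split between the isoforms.

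**Figure D1:**
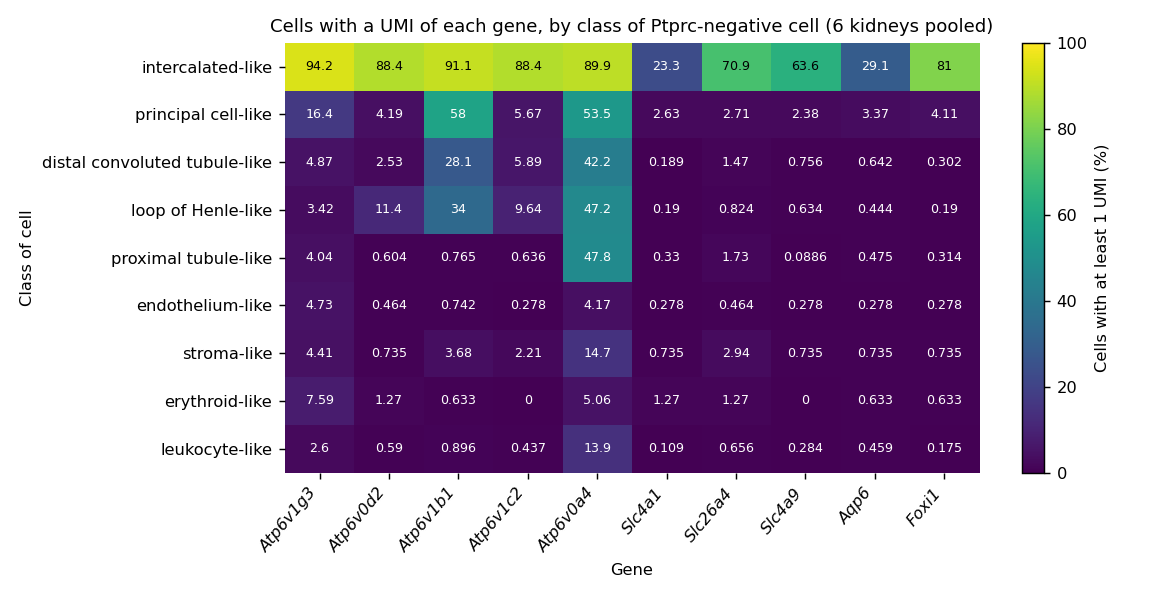
Share of cells (%) with at least 1 UMI of each gene (columns) in each named class of Ptprc-negative cells (rows), with the 6 kidneys pooled and the value printed in each field. The intercalated-like row is bright from 23.3% (Slc4a1) to 94.2% (Atp6v1g3), while Atp6v1b1 and Atp6v0a4 are also bright in other tubular classes, up to 58.0% and 53.5% in principal cell-like cells.

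Next, co-detection within single cells was counted, as a description with no test. Of the 258 intercalated-like cells, 256 had at least 3 of the 10 genes, 219 had at least 6, and the median was 8 genes per cell. Among all 28040 Ptprc-negative cells, 769 had at least 3 and 258 had at least 6, and 1 cell had all 10. Cells with at least 6 genes were largely the intercalated-like cells (219 of 258), and most of the others were principal cell-like (36). Cells with at least 3 genes were spread more widely, with 171 in the loop of Henle-like class, 157 in the principal cell-like class, and 143 in the distal convoluted tubule-like class.

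The pump subunits and Foxi1 were found together in most intercalated-like cells. Of cells with Foxi1, 92.8% to 98.1% also had each of the 5 V-ATPase isoforms. The exchangers split the same cells. Of 60 cells with Slc4a1, 56 had Aqp6 (93.3%, exact 95% interval 83.8% to 98.2%) and 4 had Slc26a4 (6.67%, 1.85% to 16.2%). Of 183 cells with Slc26a4, 4 had Slc4a1 (2.19%, 0.60% to 5.50%), 20 had Aqp6 (10.9%), and 131 had Slc4a9 (71.6%). All 4 cells with both Slc4a1 and Slc26a4 were from naive kidneys, 3 and 1. The intervals cover counting error only.

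Slc4a9 (AE4), the basolateral exchanger usually assigned to type B cells, was less exclusive than Slc26a4. It was detected in 46.7% of the cells with Slc4a1 (28 of 60) and in 79.9% of its own cells together with Slc26a4 (131 of 164). In all of the 6 kidneys it was found in at least 1 cell with Slc4a1, from 1 of 4 cells in tolerized kidney 1 to 8 of 10 in tolerized kidney 2.

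**Figure D2:**
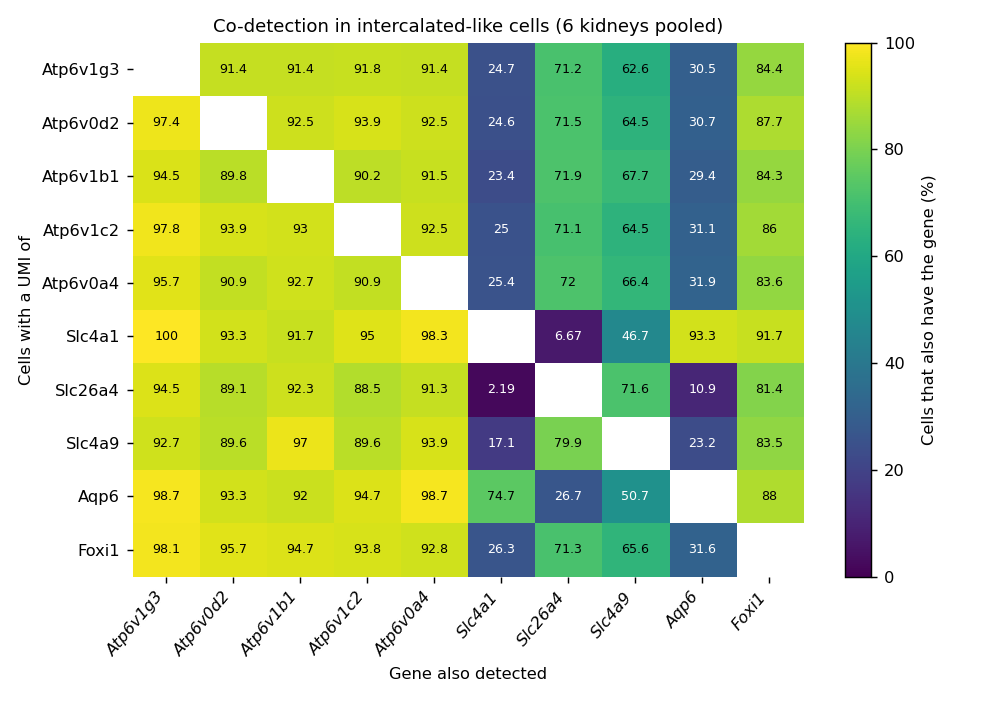
Co-detection in the 258 intercalated-like cells, 6 kidneys pooled. Each row takes the cells with a UMI of 1 gene and gives the share (%) that also had a UMI of the gene in the column. Pump subunits and Foxi1 accompany all rows, whereas the fields of Slc4a1 with Slc26a4 are dark (6.67% and 2.19%) and that of Slc4a1 with Aqp6 is bright (93.3%).

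The intercalated-like cells were then split by these exchangers alone, into 179 cells with Slc26a4 and no Slc4a1, 56 cells with Slc4a1 and no Slc26a4, 4 with both, and 19 with neither. Genes that did not define the split were read in the first 2 kinds, and those named here were picked after their values were seen. Kit, a growth factor receptor, was detected in 98.2% of the Slc4a1 cells and 8.38% of the Slc26a4 cells, and the transcription factor Dmrt2 in 75.0% and 1.12%. Insrr, an alkali-sensing receptor, showed the opposite order with 3.57% and 87.2%, as did the transcription factor Hmx2 with 1.79% and 84.9%. Slc26a7, an anion exchanger, was detected in 35.7% of the Slc4a1 cells and in 0 of the 179 Slc26a4 cells, which allows a share of cells with a UMI of up to 1.68% by counting error and sets no limit on cells that express it. The V-ATPase isoforms were in 88.3% to 100% of cells of both kinds, and Foxi1 was in 91.1% and 81.0%. Cells with neither exchanger had a median of 1746 UMIs, against 9177 and 8557 in the Slc26a4 and Slc4a1 cells.

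Outside the 10 genes, the transcripts most like them were those with the highest ratio of CPM in Ptprc-negative cells with at least 3 of the 10 genes to CPM in cells with 0, taken as the lowest of the 6 kidneys. The leading genes were Hmx2, with a log2 ratio of 4.07 or more in each kidney, Guca2a, a guanylate cyclase activator peptide (3.95), Spink8 (3.55), and Rhbg, an ammonia transporter (3.37). Tmem213, Ckmt1, Rhcg, Scnn1a, and Tfcp2l1 were among those that followed, at 2.85 to 3.02. Of these, Hmx2, Rhcg, Tmem213, and Spink8 were also naming markers of the cluster. Only 256 of the 769 cells with at least 3 of the genes were intercalated-like, so genes of other tubular classes can rank high too. Rhbg, for example, was also among the leading genes of a principal cell-like cluster.

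The share of Ptprc-negative cells with at least 3 of the genes was 2.38% and 1.21% (naive), 1.48% and 2.72% (rejecting), and 2.36% and 7.05% (tolerized). The groups overlapped in each comparison (exact permutation p = 0.667 for all 3, 2-sided), and the smallest p that 2 kidneys against 2 allow is 0.3333. When each cell was thinned to 1000 UMIs, the shares were 1.23% and 0.588%, 0.856% and 1.12%, and 0.542% and 1.33%. Thinning left out 1155 and 341 shallower cells in the rejecting kidneys, 260 and 282 (tolerized), and 0 (naive). Tolerized kidney 2 was highest in both the unthinned and the thinned share, and it had the deepest cells. With at least 2 of the genes, unthinned, both tolerized kidneys (9.44% and 22.2%) were above both naive kidneys (8.15% and 4.82%). The same order held, also unthinned, with called doublets kept, with at least 1500 UMIs, and with at most 20% mitochondrial UMIs.

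Intercalated-like cells made up 1.32% and 0.570% of Ptprc-negative cells in the naive kidneys, 0.661% and 1.13% (rejecting), and 0.595% and 1.29% (tolerized). The spread within each group was as large as the spread between groups (exact permutation p = 1 for each comparison, 2-sided). These are shares of a cell suspension, and leukocytes without a Ptprc UMI count in the denominator.

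The level of each gene was then compared between groups, first over the sum of all Ptprc-negative cells of a kidney. There, fewer intercalated cells and less RNA per cell cannot be told apart. Levels are UMI counts scaled to a common library size by TMM (CPM), and the edgeR quasi-likelihood test was used at a false discovery rate (FDR) of 0.05 over all 14656 genes tested. In rejecting versus naive kidneys, 1 of the 10 genes passed the test (Slc4a9), where 33.8% of all genes did (19.4% higher and 14.4% lower). In tolerized versus naive kidneys, 1 passed (Atp6v0a4), where 18.9% of all genes did (10.6% higher and 8.24% lower). In tolerized versus rejecting kidneys, 0 passed, where 1.28% of all genes did (0.0341% higher and 1.24% lower). In that last comparison 2 of the 10 genes had an unadjusted p under 0.05 in edgeR (Slc4a9 and Aqp6), as did 2126 of all 14656 genes. DESeq2 called 1 of the 10 (Aqp6) and 885 of all genes.

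Slc4a9 stood at 2.68 and 2.48 CPM (naive), 6.83 and 11.5 CPM (rejecting), and 3.14 and 5.44 CPM (tolerized). Both rejecting kidneys were above all others, and the tolerized kidneys were between the groups. The level was 3.52-fold higher in rejecting than in naive kidneys (log2 fold change 1.82 ± 0.38 SE, FDR = 0.0114). In tolerized versus naive kidneys the log2 difference was 0.73 ± 0.37 (FDR = 0.206), and in tolerized versus rejecting kidneys it was −1.09 ± 0.36 (FDR = 0.215). The call against naive kidneys was lost when either naive kidney (FDR = 0.0619 and 0.0650) or rejecting kidney 2 (FDR = 0.0515) was left out. It was also lost when cells with Ptprc were added (log2 0.68, FDR = 0.184).

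Atp6v0a4 stood at 98.9 and 75.9 CPM (naive), 124 and 130 CPM (rejecting), and 142 and 144 CPM (tolerized). The 3 groups did not overlap. It was 1.63-fold higher in tolerized than in naive kidneys (log2 0.71 ± 0.18, FDR = 0.0361), while rejecting versus naive kidneys gave 0.54 ± 0.18 (FDR = 0.0557). In rejecting versus naive kidneys, Atp6v0a4 was called higher in 5 of 16 alternatives and changed sign in 1. Tolerized versus rejecting kidneys gave 0.17 ± 0.18 (FDR = 0.751), so a rise particular to tolerized kidneys was not resolved. Proximal tubule-like cells held 41.2% and 44.1% of these UMIs (naive), 45.8% and 57.4% (rejecting), and 77.7% and 60.05% (tolerized), and leukocyte-like cells held 31.1% in rejecting kidney 1. A further 3977 cells lay in clusters that received no name, and they held 0.57% to 13.8% of these UMIs in single kidneys. Among them, clusters of 1813 and 1627 cells, almost wholly from naive kidneys, had 2 proximal tubule markers each, where a name needed 3. Their UMIs are not in the proximal tubule-like shares. The 8 proximal tubule markers summed to 4799 and 4684 raw CPM (naive), 4844 and 3348 (rejecting), and 5266 and 4119 (tolerized), so that the groups overlapped. The call in tolerized versus naive kidneys was lost without either naive kidney (FDR = 0.0797 and 0.232) and without either tolerized kidney (FDR = 0.106 and 0.107). With cells holding Ptprc added, the log2 difference was 0.17 (FDR = 0.585).

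Foxi1 stood at 12.5 and 11.6 CPM (naive), 3.95 and 9.12 CPM (rejecting), and 5.67 and 6.43 CPM (tolerized). All 4 transplanted kidneys were below both naive kidneys. The log2 differences from naive kidneys were −0.90 ± 0.36 in rejecting and −0.99 ± 0.35 (tolerized), and neither passed the test (FDR = 0.0961 and 0.0938). With cells of at most 20% mitochondrial UMIs, these differences were 0.02 and 0.19. Other settings kept the sign, and Foxi1 was called lower in 3 of 16 alternatives for rejecting and 6 of 16 for tolerized kidneys, with DESeq2 among the latter (FDR = 0.0480).

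Aqp6 stood at 16.3 and 7.94 CPM (naive), 16.1 and 22.9 CPM (rejecting), and 1.77 and 8.15 CPM (tolerized). Both tolerized kidneys were below both rejecting kidneys. The log2 difference between tolerized and rejecting kidneys was −1.97 ± 0.66 and did not pass the test (FDR = 0.221, unadjusted p = 0.0200). Slc4a1 had the same low sample, with 0.60 CPM in tolerized kidney 1 against 3.91 to 11.8 CPM in the other 5 kidneys.

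The remaining 5 genes, Atp6v1g3, Atp6v0d2, Atp6v1b1, Atp6v1c2, and Slc26a4, overlapped between groups in all 3 comparisons of Ptprc-negative cells. Atp6v1g3, for example, had 158 and 90.9 CPM (naive), 74.4 and 114 CPM (rejecting), and 75.3 and 97.9 CPM (tolerized). Slc26a4 had 25.3 and 19.5 CPM, 9.58 and 33.6 CPM, and 18.6 and 20.02 CPM. Groups that did not overlap were seen for 3 of the 10 genes in each comparison, where 72.3%, 66.6%, and 42.4% of all genes did not overlap.

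**Figure D3:**
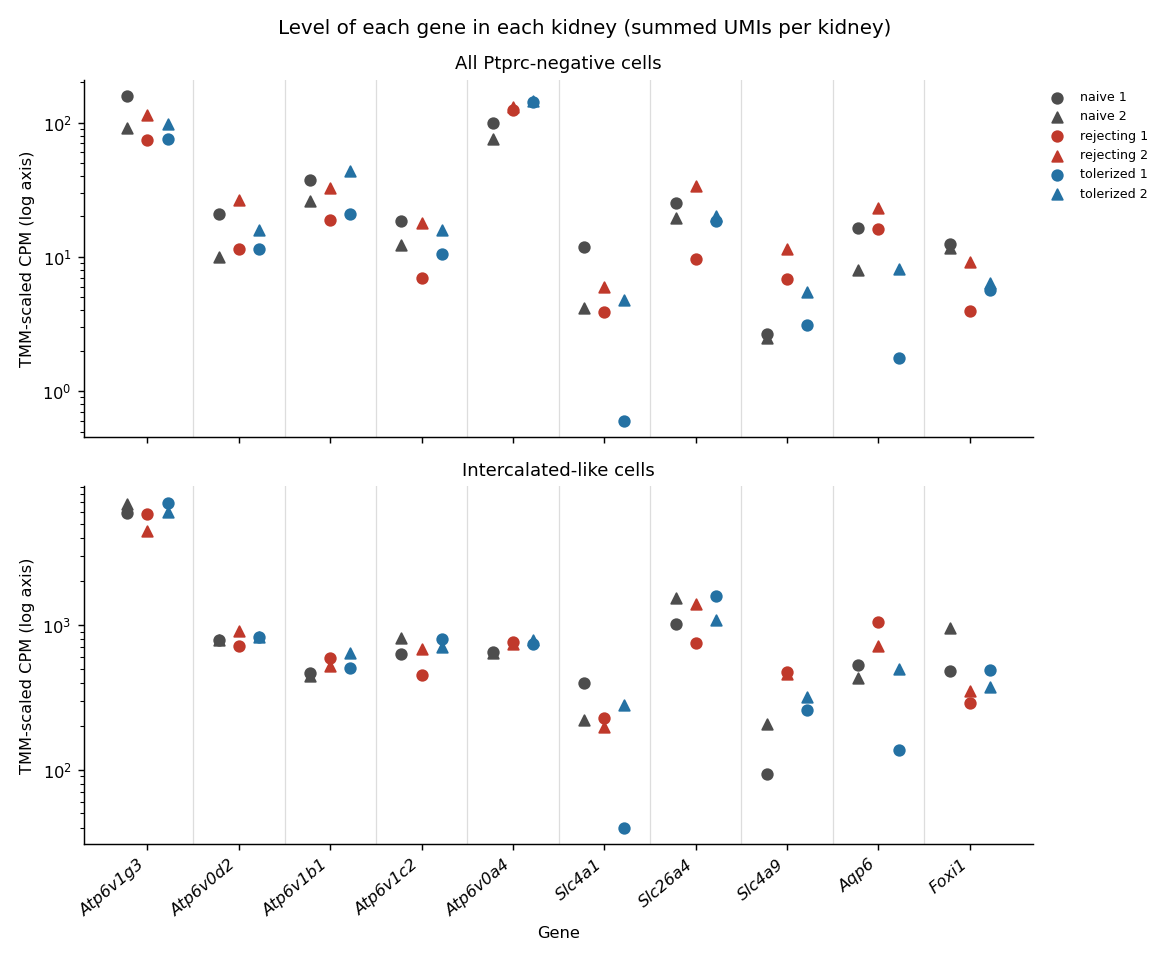
TMM-scaled CPM (log axis) of each gene in each kidney, for all Ptprc-negative cells (top) and intercalated-like cells (bottom). Points are single kidneys (circle, kidney 1 and triangle, kidney 2 of a group). Slc4a9 is highest in both rejecting kidneys in both panels (6.83 and 11.5 CPM, and 474 and 461 CPM), and Slc4a1 and Aqp6 are lowest in tolerized kidney 1.

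Second, the genes were compared within intercalated-like cells, where the number of such cells no longer enters the level. The mix of type A and type B cells still enters it. Cells with a UMI of Slc4a1 made up 13.8% to 33.7% of intercalated-like cells in single kidneys. Here 6066 genes were tested over sums of 27 to 86 cells per kidney, so the precision rests on few cells. In rejecting versus naive kidneys, 2 of the 10 genes passed the test (Slc4a9 higher and Foxi1 lower), where 7.45% of all genes did (4.12% higher and 3.33% lower). In tolerized versus naive kidneys, edgeR called 0 of the 10, where 6.15% of all genes were called (3.58% higher and 2.57% lower). Slc4a9 and Foxi1 had an unadjusted p under 0.05 there, as did 1313 of all 6066 genes. DESeq2 called 0 of the 10 and 167 of all genes. In tolerized versus rejecting kidneys, edgeR called 0 of the 10 genes and 0 of all 6066 genes (0%), with 322 genes at an unadjusted p under 0.05, while DESeq2 called 5 genes, none of them among the 10.

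Slc4a9 was counted in intercalated-like cells at 93.0 and 207 CPM (naive, from 55 and 45 UMIs), 474 and 461 CPM (rejecting, from 119 and 160 UMIs), and 260 and 318 CPM (tolerized, from 131 and 237 UMIs). The 3 groups did not overlap, with naive lowest and rejecting highest. The level was 3.32-fold higher in rejecting than in naive kidneys (log2 1.73 ± 0.34, FDR = 0.00493). Tolerized versus naive kidneys gave a log2 difference of 1.04 ± 0.34 (FDR = 0.0816), and tolerized versus rejecting kidneys −0.69 ± 0.31 (FDR = 0.889). The call was lost without naive kidney 1 (log2 1.14, FDR = 0.122) and with at most 20% mitochondrial UMIs (log2 2.05, FDR = 0.156), a limit that left 9 and 3 naive cells. Median mitochondrial shares in intercalated-like cells also differed between groups, at 29.5% in each naive kidney, 22.6% and 20.3% (rejecting), and 20.6% and 18.0% (tolerized), and their part in the result was not tested beyond that limit.

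Foxi1 was counted at 484 and 948 CPM (naive), 287 and 352 CPM (rejecting), and 487 and 376 CPM (tolerized). Both rejecting kidneys were below all others, and tolerized kidneys overlapped with naive kidneys. Rejecting kidneys had 0.454 times the naive level (log2 −1.14 ± 0.32, FDR = 0.0429). The naive kidneys differed from each other by more than the rejecting kidneys did, and without naive kidney 2 the log2 difference was −0.60 (FDR = 0.410). DESeq2 did not call it (FDR = 0.0572).

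Aqp6 and Slc4a1, found in the same cells, differed widely between the 2 tolerized kidneys. Aqp6 was at 526 and 433 CPM (naive), 1041 and 721 CPM (rejecting), and 137 and 494 CPM (tolerized), and the log2 difference between tolerized and rejecting kidneys was −1.46 ± 0.42 (FDR = 0.377, unadjusted p = 0.00292). Slc4a1 was at 397 and 221 CPM, 227 and 199 CPM, and 39.8 and 280 CPM, without a call in any comparison. Tolerized kidney 1 held 20 UMIs of Slc4a1 in 4 cells, after the removal of called doublets had taken its intercalated-like cells from 45 to 29. When tolerized kidney 2 was left out, this kidney alone stood for its group. The log2 differences between tolerized and rejecting kidneys were then −2.41 (Slc4a1) and −2.68 (Aqp6).

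The V-ATPase isoforms and Slc26a4 gave no call in intercalated-like cells. Atp6v0d2 was at 781 and 787 CPM (naive), 710 and 902 CPM (rejecting), and 829 and 822 CPM (tolerized). Atp6v1b1 was at 468 and 446 CPM, 594 and 525 CPM, and 505 and 637 CPM. Atp6v0a4 was at 646 and 644 CPM, 761 and 744 CPM, and 741 and 789 CPM. Atp6v1g3 was at 5906 and 6826 CPM (naive), 5781 and 4425 CPM (rejecting), and 6964 and 6023 CPM (tolerized), with both rejecting kidneys lowest. Atp6v1c2 and Slc26a4 ranged from 450 to 815 CPM and from 753 to 1588 CPM, and both were lowest in rejecting kidney 1. For Atp6v1b1 and Atp6v0a4 both naive kidneys were lowest, but the log2 differences from naive were at most 0.32 with SEs of 0.25 to 0.26. Groups did not overlap for 6, 4, and 5 of the 10 genes in rejecting versus naive, tolerized versus naive, and tolerized versus rejecting kidneys, where 51.4%, 54.4%, and 33.8% of all genes did not.

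**Figure D4:**
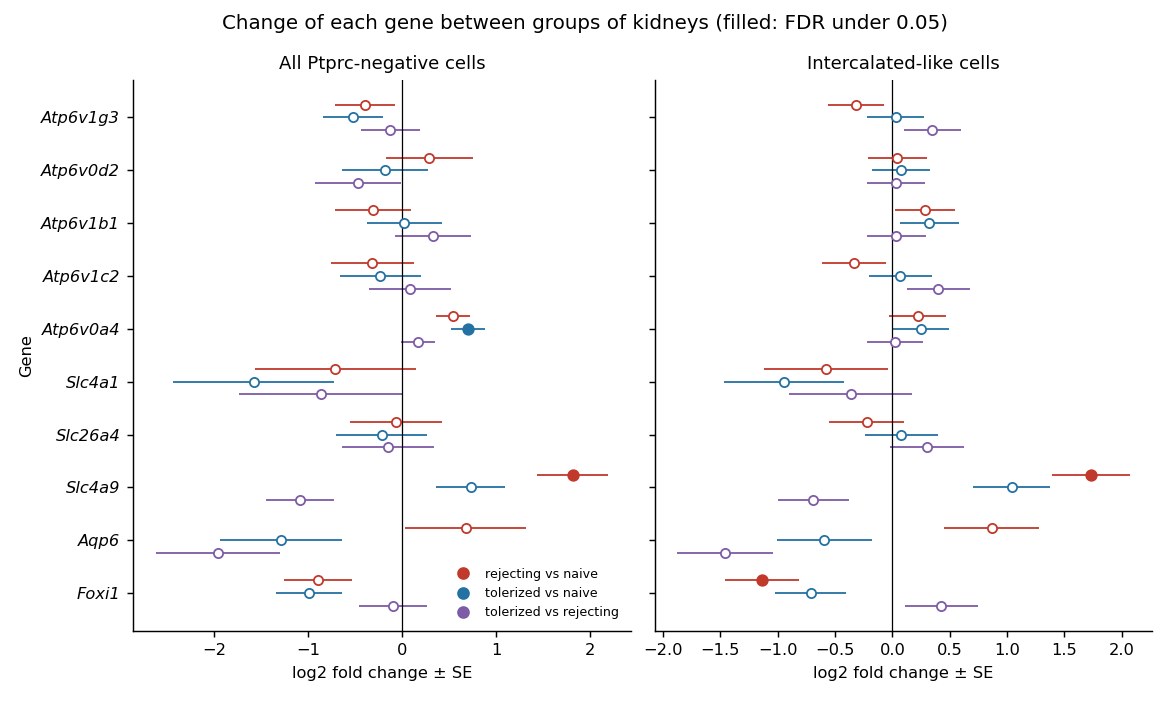
log2 fold change of each gene with its SE (bars) for the 3 comparisons of kidneys, n = 2 per group, in all Ptprc-negative cells (left) and intercalated-like cells (right). Filled points passed the FDR, and they are Slc4a9 in rejecting versus naive kidneys (1.82 and 1.73), Atp6v0a4 in tolerized versus naive kidneys (0.71, left), and Foxi1 in rejecting versus naive kidneys (−1.14, right).

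Slc4a9 was then read apart in the cells with Slc26a4 and in those with Slc4a1, which were chosen without it. In the Slc26a4 cells (54 and 23 naive, 20 and 21 rejecting, and 23 and 38 tolerized), its raw CPM was 106 and 181 (naive), 703 and 605 (rejecting), and 300 and 355 (tolerized). The groups kept the order seen in all intercalated-like cells and did not overlap. In the Slc4a1 cells (26 and 4, 7 and 5, and 4 and 10 cells), it was 35.1 and 208, 185 and 151, and 15.2 and 101 raw CPM, from 1 to 21 UMIs per kidney, and the groups overlapped. Foxi1 in the Slc26a4 cells was 450 and 793, 305 and 379, and 543 and 347 raw CPM, so rejecting was below naive there too.

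**Figure D5:**
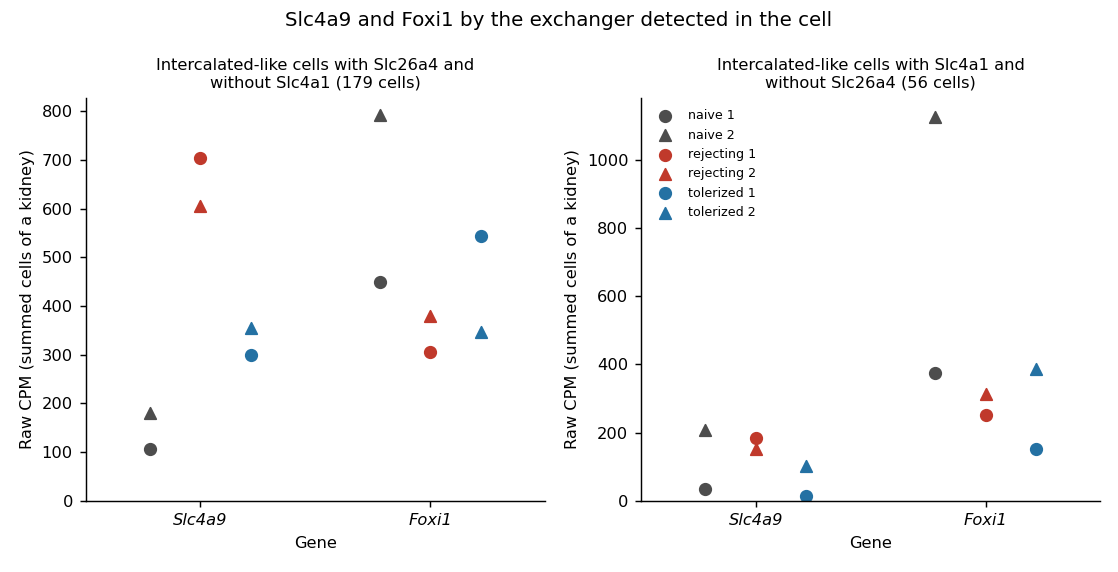
Raw CPM of Slc4a9 and Foxi1 in each kidney, summed over intercalated-like cells with Slc26a4 and no Slc4a1 (left) and with Slc4a1 and no Slc26a4 (right). Points are single kidneys. On the left, Slc4a9 is at 106 and 181 (naive), 300 and 355 (tolerized), and 605 and 703 (rejecting). On the right, with 4 to 26 cells per kidney, the groups overlap.

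The balance between type B and type A transcripts was summarized as the UMIs of Slc26a4 and Slc4a9 as a share of those 2 genes plus Slc4a1 and Aqp6 in intercalated-like cells. In naive kidneys it was 54.5% (exact 95% interval 51.6% to 57.3%) and 72.6% (68.6% to 76.4%). Rejecting kidneys gave 49.2% (45.2% to 53.2%) and 67.0% (63.9% to 69.9%), and tolerized kidneys 91.3% (89.4% to 92.9%) and 64.4% (62.1% to 66.8%). These intervals count each UMI as independent, although the UMIs of a kidney came from only 27 to 86 cells. They are therefore too narrow to compare kidneys. Tolerized kidney 1 was highest, but tolerized kidney 2 was within the range of the other groups, and the groups overlapped (exact permutation p = 0.667 for each comparison, 2-sided). Over all Ptprc-negative cells the shares were 49.9% and 64.5%, 45.1% and 60.9%, and 90.2% and 66.4%, so that both tolerized kidneys were highest (exact permutation p = 0.3333 against either group, the smallest possible). With called doublets kept, which raised tolerized kidney 1 from 29 to 45 intercalated-like cells, its share was 73.1%, and the other 5 kidneys gave 51.7% to 69.5%. The share also moved with the limit on mitochondrial UMIs. At most 20% of these left 3 to 30 intercalated-like cells per kidney and shares of 60.7% and 100%, 87.4% and 81.0%, and 91.5% and 86.4%. The median mitochondrial share was 28.5% in the Slc4a1 cells and 24.5% in the Slc26a4 cells.

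Other genes of these cells were read from fixed lists. Of 17 other V-ATPase subunits, 15 were tested in intercalated-like cells. Between rejecting and naive kidneys, where 7.45% of all genes were called, 0 rose and 1 fell, namely Atp6v1a, the catalytic subunit (log2 −1.45 ± 0.25, FDR = 0.00162). Its raw CPM was 2195 and 2198 (naive), 904 and 888 (rejecting), and 1125 and 1239 (tolerized). Atp6v1a also fell in tolerized versus naive kidneys (log2 −1.01 ± 0.24, FDR = 0.0208), again as the only call. Atp6v1b2, the widely expressed partner isoform of Atp6v1b1, had log2 differences of −0.94 ± 0.31 and −0.87 ± 0.28 from naive kidneys (FDR = 0.0827 and 0.0853). The partner isoforms Atp6v1c1, Atp6v1g1, Atp6v0a1, Atp6v0a2, and Atp6v0d1 gave no call in these cells. In tolerized versus rejecting kidneys edgeR called 0 of the 15, with 0 at an unadjusted p under 0.05. The median log2 difference of the list was −0.37 in rejecting and −0.03 (tolerized), where the median of all genes was 0.01 in both.

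Over all Ptprc-negative cells, 2 of the 17 other subunits rose and 4 fell between rejecting and naive kidneys, where 33.8% of all genes were called. Those that rose were Atp6v0c, the proton-carrying ring subunit (log2 2.63 ± 0.67, FDR = 0.0228), and Atp6v0a2 (0.57 ± 0.18, FDR = 0.0474). Those that fell included Atp6v1g1, the widely expressed partner of Atp6v1g3 (−0.73 ± 0.17, FDR = 0.0163), and Atp6v1a (−0.79 ± 0.22, FDR = 0.0308). In the other comparisons of Ptprc-negative cells, edgeR called 0 of the 17. An unadjusted p under 0.05 was found for 4 in tolerized versus naive and 2 in tolerized versus rejecting kidneys. Of all 14656 genes, 5140 and 2126 had such a p. DESeq2 was not read for these lists.

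Of 17 other intercalated cell genes, 16 were tested in intercalated-like cells, and between rejecting and naive kidneys 1 rose and 3 fell, where 7.45% of all genes were called. P2ry14, a receptor for UDP-glucose, rose (log2 2.41 ± 0.58, FDR = 0.0184) from 28.8 and 4.13 raw CPM in naive to 47.2 and 197 (rejecting), with 34.7 and 42.9 (tolerized). Rejecting kidney 2 carried most of this level. The value in naive kidney 2 is the smallest nonzero level that its sum of cells can give, so the size of the rise is uncertain. Oxgr1, the oxoglutarate receptor (−1.45 ± 0.34, FDR = 0.0157), Insrr (−1.16 ± 0.31, FDR = 0.0332), and Hepacam2 (−0.96 ± 0.27, FDR = 0.0398) fell. These 4 genes were naming markers of the cluster. In tolerized versus naive kidneys Bsnd, a chloride channel subunit, fell (−1.35 ± 0.35, FDR = 0.0313) and none of the 16 rose. In tolerized versus rejecting kidneys edgeR called 0 of the 16, with 2 at an unadjusted p under 0.05, as were 322 of all 6066 genes.

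Transcripts of neighboring cells were counted in the same sums. In intercalated-like cells, 2 of 5 tested principal cell genes were lower in rejecting than in naive kidneys, Aqp2 (log2 −2.59 ± 0.58, FDR = 0.0115) and Hsd11b2 (−3.47 ± 0.74, FDR = 0.00834). Of all genes, 3.33% were called lower in that comparison. The 8 principal cell markers summed to 2077 raw CPM in naive kidney 1 and to 417 to 695 in the other 5 kidneys. Leukocyte markers summed to 7.58 and 20.7 raw CPM (naive), 1180 and 1296 (rejecting), and 328 and 425 in tolerized intercalated-like cells, which follows the order of the groups for Slc4a9. Their part in the member results was not tested. Slc4a9 had a UMI in 0.284% of leukocyte-like cells. In intercalated-like cells without a UMI of Aqp2, Slc4a9 (log2 1.69, FDR = 0.00634) and Foxi1 (−1.19, FDR = 0.0264) were called as before. Ptprc-negative cells were also filtered to those without a UMI of the other leukocyte markers, except Lyz2 and Cd74, which the filter did not use. There Slc4a9 was called in rejecting versus naive kidneys (2.33, FDR = 0.00114), with 511 cells left in rejecting kidney 1. Under the same filter, Aqp6 in tolerized versus rejecting kidneys changed sign (0.30). The filter was not applied within intercalated-like cells, so it does not bear on the sums there.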

How the data were processed

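The authors deposited raw UMI counts per gene and barcode for each kidney, made with Cell Ranger (3.0.1 in the headers of the transplanted kidneys, a version not given there for the naive kidneys) against mm10. The naive matrices listed 28692 genes and the others 31053, and the lowest totals among the cells kept were 1342 to 1538 and 500 to 502 UMIs. Library totals were 34874702 to 96803926 UMIs.

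Of 60181 barcodes, 49797 were kept (500 UMIs and 250 genes or more, 50% mitochondrial UMIs or less). Scrublet scores were ranked and the top 0.8% for every 1000 barcodes were removed as doublets, because its own threshold marked 0 to 276 cells per kidney. Ptprc-negative cells (28040) were clustered in scanpy 1.11.5 (2500 variable genes, 40 components, 20 neighbors, Leiden resolution 1.5). A class needed at least 3 markers. Raw counts were summed per kidney and tested in edgeR 4.0.16 (filterByExpr, TMM) with all 6 kidneys in 1 fit, with Benjamini-Hochberg FDR over all genes. DESeq2 1.42.0 was an alternative. Shares were compared by exact permutation. The edgeR fit was checked on simulated counts with a fixed spread, for tolerized versus rejecting kidneys, and DESeq2 was not checked in this way. Named genes were the 10 members, at most 4 called genes of each list and the partner isoforms of members, and the 10 most similar genes by ratio (5 CPM added), of which 1 is not reported here. The members and lists were chosen with earlier results of these data known.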

Additional observations from a re-analysis of the deposited data

How the results depend on the processing

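Counts of the 10 genes called moved with several settings. In Ptprc-negative cells, rejecting versus naive kidneys gave 1 call, where 4949 of all 14656 genes were called. There were 2 with DESeq2 (5456 of 14656 genes), without the filter on low counts (5400 of 20635), and with at least 1500 UMIs (4550 of 14607). There were also 2 with at most 20% mitochondrial UMIs (4653 of 13838) and without cells holding leukocyte markers other than Lyz2 and Cd74 (3588 of 14334). Named kidney classes only, an alternative chosen after seeing the data, gave 2 as well (3589 of 14015). Adding cells with Ptprc gave 6 calls, all lower, where 8970 of all 15716 genes tested were called (4613 higher and 4357 lower). Tolerized versus naive gave 1 call (2763 of all 14656 genes). It gave 2 with DESeq2 (3586 of 14656), without the filter (3366 of 20635), and in named classes (2350 of 14015). Tolerized versus rejecting gave 0 calls (187 of all 14656 genes), and 1 with DESeq2 (885 of 14656) or without the filter (833 of 20635). In intercalated-like cells, rejecting versus naive gave 2 calls (452 of all 6066 genes). It gave 3 without the filter (720 of 14067) or with doublets kept (724 of 6934). DESeq2 gave 1 (244 of 6066), as did the replicate block (357 of 6066), and at most 20% mitochondrial UMIs gave 0 (34 of 1783). Without the filter, tolerized versus naive gave 2 (620 of 14067) and tolerized versus rejecting 1 (72 of 14067). Leaving out 1 kidney leaves 1 kidney in a group, so counts of calls are not compared for these fits. The median log2 difference of the 10 genes also moved. In Ptprc-negative cells, rejecting versus naive, it was −0.19 with all kidneys. It was 0.39 without rejecting kidney 1 and −0.74 without rejecting kidney 2. Of all genes, tolerized versus rejecting in Ptprc-negative cells gave 187 calls, 885 with DESeq2 and 59 with the replicate block. In intercalated-like cells, DESeq2 gave 244 against 452 calls (rejecting versus naive) and 167 against 373 (tolerized versus naive).

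The study's supplement describes 2 experiments, but the sources used here do not tie the kidney numbers to them. Correlations of the deviations of same-numbered kidneys were 0.0582, −0.152, and 0.24 in Ptprc-negative cells. With 2 kidneys per group they cannot decide whether the numbers mark pairs. A block for the replicate number was therefore used only as an alternative. With the block, Foxi1 in intercalated-like cells was no longer called (FDR = 0.0723). In the Ptprc-negative comparisons with naive kidneys, 4801 and 2558 genes were called against 4949 and 2763.

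Some values changed sign, and the cause was not tested. Foxi1 in Ptprc-negative cells with at most 20% mitochondrial UMIs had log2 differences from naive of 0.0196 (rejecting) and 0.1872 (tolerized). Aqp6 in tolerized versus rejecting kidneys gave 0.3027 without cells holding leukocyte markers other than Lyz2 and Cd74. Atp6v0a4 in rejecting versus naive kidneys gave −0.6549 with cells holding Ptprc added. Differences in shares are in percentage points. The share with at least 3 of the genes (rejecting minus naive, 0.303) was −0.0492 with at least 2 genes, and tolerized minus rejecting (2.61) was −0.0540 after thinning. The share of intercalated-like cells for rejecting minus naive (−0.0489) was 0.1055 with at least 1500 UMIs and 0.3759 with at most 20% mitochondrial UMIs. Tolerized minus naive (−0.00257) was 0.0711 with doublets kept and 0.6325 with at most 20% mitochondrial UMIs. Tolerized minus rejecting (0.0464) was −0.0876 at resolution 0.8 and −0.1409 with at least 1500 UMIs. The type B share for rejecting minus naive (−5.48) was 3.8983 with at most 20% mitochondrial UMIs and 2.6141 with Slc26a4 against Slc4a1 alone. Leaving out 1 kidney moved these differences, in the order rejecting minus naive, tolerized minus naive, and tolerized minus rejecting, over −0.3195 to 0.9251, 0.5644 to 5.2546, and 0.2616 to 4.9518 (at least 3 genes), −0.4229 to 0.3250, −0.3765 to 0.3714, and −0.3002 to 0.3930 (intercalated-like share), and −14.5504 to 3.5892, 0.8787 to 27.6961, and 6.3593 to 33.1767 (type B share). Of 60 comparisons of a gene, 47 had an unadjusted p of 0.05 or more, and 34 of these changed sign under some setting and 10 were called under some setting. With 2 kidneys per group and 27 to 86 intercalated-like cells per kidney, differences of the size of these SEs could not be resolved.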

Other observations

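Hemoglobin and related erythroid transcripts, read because Slc4a1 is also a red cell protein, summed to 1057 and 478 raw CPM in Ptprc-negative cells of naive kidneys 1 and 2, 1193 and 77.1 (rejecting), and 24.3 and 5834 (tolerized). Slc4a1 was also lowest in tolerized kidney 1 (0.60 CPM), but it was highest in naive kidney 1 (11.8 CPM). It was at 4.76 CPM in tolerized kidney 2, where the erythroid transcripts were highest, and at 3.91 and 5.96 CPM in rejecting kidneys 1 and 2. The part of red cells in the level of Slc4a1 was not tested. Of 6 erythroid genes, 5 were tested and 0 were called by edgeR in any comparison, with 0 at an unadjusted p under 0.05.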
